A study of Mus musculus with 9 samples.

Results

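Gnas and Ube3a are genes of imprinted regions, in which the allele from 1 parent is silenced in some tissues, and both lie opposite RNAs read from the other DNA strand. Described here are Gnas, the features Gm20721 and Nespas on its opposite strand, Ube3a, and the feature 9330162G02Rik on the opposite strand of Ube3a. These 5 features, of 55228 listed for each library, were chosen from measured values: in the same libraries the counts on Gm20721 and 9330162G02Rik stood far above those on the genes they face. Their levels and the differences between groups are therefore given as a description, with no test. Nespas is listed under its other symbol, Gnasas1, which RefSeq gives as a synonym at the same coordinates.

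The libraries came from mouse uterus, with 3 mice in each of 3 groups and 1 library for each mouse. All mice were wild-type C57BL females of 8 weeks, and tissue was taken on day 7 after surgery. For the injury group, damage was done from within the uterus by 10 passes of a 27-gauge needle, and these mice were given 50 µL of PBS. The CRC-transplanted group had the same injury and then received 50 µL of conditionally reprogrammed cells (CRCs), which are endometrial epithelial cells grown under conditions that keep them dividing. The sham-operated group had a sham operation. The design implies 3 comparisons, which ask how the uterus after injury differed from sham, how the transplanted uterus differed from sham, and how it differed from injury alone. Each group enters more than a single comparison, so the comparisons share libraries and are not independent of each other.

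Gnas encodes the alpha subunit of the stimulatory G protein, which passes the signal of many hormone receptors to adenylyl cyclase and so raises cyclic AMP. The locus has alternative promoters with different imprints, and Nespas is an antisense RNA from the paternal allele that keeps the promoter of the neuroendocrine secretory protein Nesp silent in cis. Ube3a encodes a HECT-type E3 ubiquitin ligase. It is expressed from the maternal allele in neurons, where an antisense RNA that extends from the Snrpn and Snhg14 region silences the paternal copy, while most other tissues use the copies from both parents. In the uterus, cyclic AMP relaxes the muscle of the wall and takes part in the decidual change of the stroma.

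The counts on features were few. They came to 325384, 317754 and 327883 in the sham-operated libraries 1 to 3, to 290684, 280886 and 282937 after injury, and to 288619, 289964 and 290833 after CRC transplantation. That was 0.776% to 0.898% of all records, while 87.3% to 91.6% were listed as lying on no feature. A single count therefore stood for 3.05 to 3.70 CPM (counts for every 1000000 counts of the library, scaled by the trimmed mean of M-values, TMM), and 3 counts for 9.14 to 11.1 CPM. Sham-operated library 1 stood apart from the others of its group, and its chi-square per degree of freedom was 16.0 and 13.6 against libraries 2 and 3, compared with 2.29 to 4.45 for every other pair within a group. Records that were ambiguous between features numbered 28622 and 24851 in sham-operated libraries 2 and 3, against 1751 to 6470 in the other 7. The part of these differences in the results below was not tested.

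At the Gnas locus, nearly every count was listed on a minus strand feature. Gnas occupies chr2:174284320-174346744 on the plus strand of GRCm38, with 11186 bases of exon (ENSMUSG00000027523.19). Gm20721 lies within it on the minus strand, at chr2:174330319-174346712, and is annotated as protein coding (ENSMUSG00000090625.1). It has 13 exons with 1484 bases, of which 1469 (99.0%) lie opposite exons of Gnas and 1142 opposite coding bases of Gnas. None of its exons overlaps an exon of Nespas. No stretch of 50 bases, out of 1435 such stretches, occurred in a transcript of any gene other than Gnas and Gm20721, so a shared copy elsewhere was not found. Whether and how the counting used strand is not given in the sources used here, so RNA of Gnas and RNA of Gm20721 cannot be told apart. Nor do the sources give whether the library kit marked strand, or whether the counting then used the opposite setting. With the opposite setting the counts listed on Gm20721, 99.9% of those on Gm20721 and Gnas together, would be of the strand of Gnas, and the counts listed on 9330162G02Rik would be of the strand of Ube3a. Every count below is therefore the count listed on a feature, not the amount of its RNA. Over the whole annotation, features with an exon opposite another feature were 16.6% of those placed and held 79.7% of the counts.

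Part of the introns of Gm20721 are also introns of Gnas. Of its 12 introns, 7 have the same start and end as an intron of Gnas. The sequence of 1 of them, chr2:174341708-174341809, is present in an annotated Gnas transcript that retains it, and is shown on both strands because it differs between them at the ends, where introns usually begin with GT and end with AG. The capitals mark the first and last pair of bases of this 102-base intron between coding exons.
Plus strand, Gnas: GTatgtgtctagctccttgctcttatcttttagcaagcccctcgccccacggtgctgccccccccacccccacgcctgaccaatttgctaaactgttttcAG
Minus strand, Gm20721: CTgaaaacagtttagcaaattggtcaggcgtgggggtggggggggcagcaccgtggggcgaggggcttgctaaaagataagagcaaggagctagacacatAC
Read in the direction of Gnas the intron begins with GT and ends with AG. In the direction of Gm20721 it begins with CT and ends with AC.

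**Figure D1:**
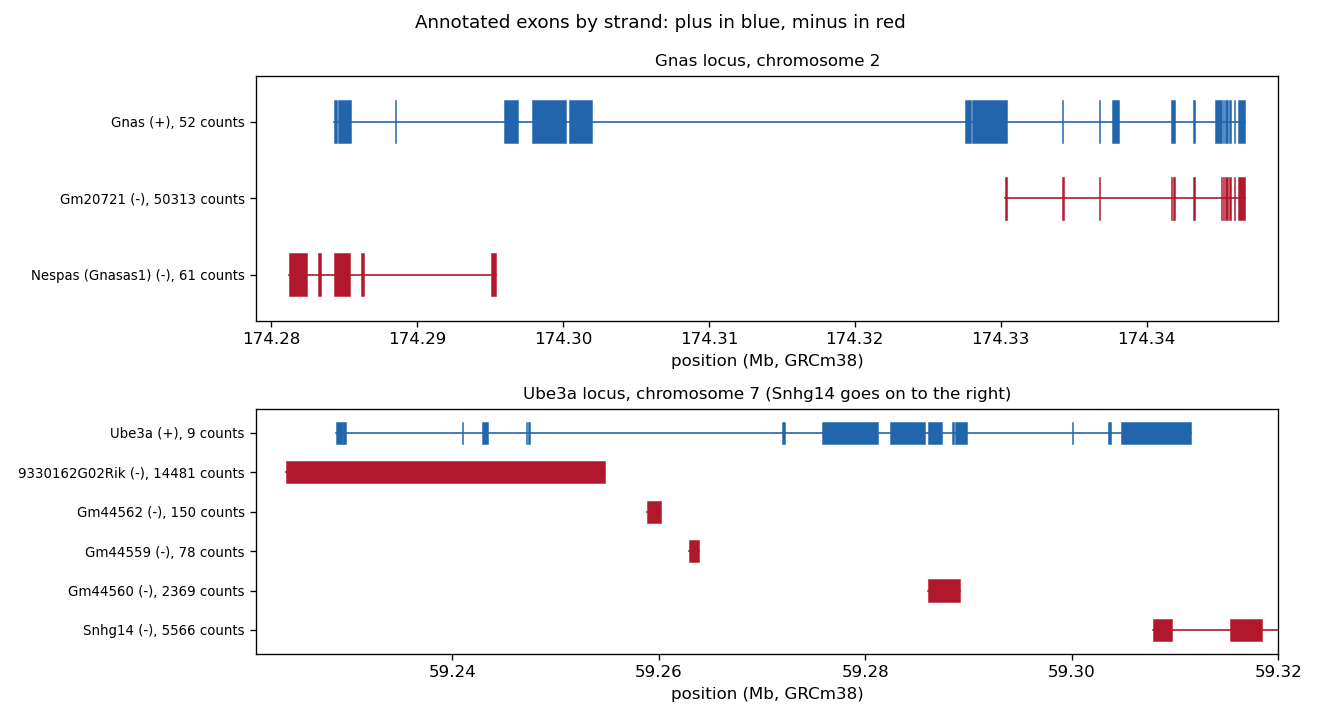
Annotated exons at the Gnas locus on chromosome 2 (upper panel) and the Ube3a locus on chromosome 7 (lower panel), drawn to scale against position in Mb on GRCm38, with plus strand features in blue, minus strand features in red and the counts summed over 9 libraries beside each name. Gm20721, with 50313 counts, repeats the 3′ exons of Gnas on the other strand, and 9330162G02Rik, with 14481, covers the 5′ part of Ube3a as a single block.

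Gm20721 carried 50313 counts over the 9 libraries, 1.87% of all counts on features, and ranked 4 among the 55228. In the sham-operated libraries 1 to 3 it had 8122, 5513 and 5912 counts, which are 26343, 20406 and 21140 CPM. After injury it had 5348, 6100 and 5917 counts, or 18557, 21449 and 20762 CPM. The CRC-transplanted libraries had 4125, 4858 and 4418 counts, or 12563, 14928 and 13475 CPM. Sham-operated library 1 was the highest of all, the injury libraries lay on both sides of sham-operated libraries 2 and 3, and the 3 CRC libraries were below the other 6.

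The mean level of Gm20721 was 22630 ± 3237 CPM (SD, n = 3) in sham-operated, 20256 ± 1511 in injury and 13655 ± 1193 in CRC-transplanted uterus. The fitted log2 difference of injury against sham was −0.16 (SE 0.119), and these groups overlapped. It was −0.03 without sham-operated library 1 and −0.10 without injury library 1. Against sham, Gm20721 was lower in CRC by a log2 difference of −0.73 (SE 0.120), a change of −39.7%. Against injury the CRC difference was −0.57 (SE 0.120), a change of −32.6%. In both CRC comparisons the groups were apart, also when counts were divided by all records of a library, although the fitted differences on that scale were −0.44 and −0.37. Of the 2 members that passed the filter on low counts, Gm20721 and 9330162G02Rik, 1 had every CRC library below every sham-operated library, as had 17.8% of the 3722 features tested, and 1 had every CRC library below every injury library, as had 17.0%. Neither had every injury library below every sham-operated library, where the share was 7.82% of all features. Since these values chose the members, nothing is read from those counts.

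In tissue taken whole, fewer cells of a type and less RNA per cell cannot be told apart. The summed counts on smooth muscle markers were lower in every injury and CRC library than in every sham-operated library, without a test of the sum. These are unscaled counts, and the sham-operated libraries also held the most counts on features. In CPM, 7.82% of all tested features had every injury library below every sham-operated library, and 17.8% had every CRC library below. All 5 of Acta2, Tagln, Myh11, Cnn1 and Des were listed above 0, with 103, 136 and 121 counts in the sham-operated libraries, 70, 76 and 70 after injury and 66, 54 and 77 after CRC transplantation, and Myh11, the smooth muscle myosin heavy chain, had the most (459 of 773). On the features opposite them the sums were 21592, 17804 and 18257 for sham, 15460, 14925 and 15121 for injury, and 9395, 8886 and 8822 for CRC. Nearly all of those lay on Gm48529, opposite the actin-binding protein gene Tagln, at 66987 ± 2596, 52965 ± 578 and 27575 ± 884 CPM. In edgeR's test 1 of 2 tested smooth muscle markers, Myh11, was called lower in CRC than in sham, and both tested features opposite them were called lower in CRC than in sham and than in injury. Of all 3722 tested features, 20.0% were called for CRC against sham, 12.9% for CRC against injury and 0.430% for injury against sham, in which none of these was called. The last share stands for 16 calls, which became 154 without sham-operated library 1 and 3 without sham-operated library 3 or injury library 2. At an unadjusted p under 0.05 Myh11 and Gm48529 passed for injury against sham, as did 12.6% of all tested features. The part of the smooth muscle markers in the level of Gm20721 was not tested.

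Gnas itself held 52 counts, too few to pass the filter. The sham-operated libraries had 3, 23 and 4, the injury libraries 4, 2 and 4, and the CRC libraries 3, 2 and 7. Sham-operated library 2 was high and the other 8 lay between 2 and 7, so the groups overlapped. The sums were 30 for sham (95% exact Poisson interval 20.2 to 42.8), 10 for injury (4.80 to 18.4) and 12 for CRC (6.20 to 21.0), and without sham-operated library 2 the sham sum was 7. These intervals cover counting error only. The higher sum in sham thus rests on that library, and no other difference of Gnas between groups was detectable at this depth.

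Gnas took 0.103% of the counts that it and Gm20721 held together. By library the share ran from 0.0328% in injury library 2 to 0.416% in sham-operated library 2. For each count on Gnas, 968 lay on Gm20721. Without sham-operated library 2, which held 23 of the 52 counts, the share was 0.0647% and the number on Gm20721 for each count on Gnas 1545. Since the exons of Gnas are far longer, the gap per kilobase was wider: over the 9 libraries, Gm20721 had a mean of 12700 CPM per kb (8466 to 17751) and Gnas 1.80 CPM per kb (0.549 to 7.61), or 1.07 without sham-operated library 2.

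Nespas, at chr2:174281237-174295436 on the minus strand, covers the upstream promoters of Gnas, and 988 of its 3143 exon bases lie opposite Gnas exons. It had 12, 6 and 9 counts in the sham-operated libraries, 4, 2 and 9 after injury, and 8, 6 and 5 after CRC transplantation. The groups overlapped and no library was at 0. The sums were 27 for sham (17.8 to 39.3), 15 for injury (8.40 to 24.7) and 19 for CRC (11.4 to 29.7), so a difference between groups was not detectable at this depth. Although Nespas shares the strand of Gm20721, its 61 counts came to 7.21 CPM per kb (2.24 to 12.4), against the 12700 CPM per kb of Gm20721.

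At the Ube3a locus the counts were again listed on minus strand features, with the same limit on strand as at Gnas. Ube3a extends over chr7:59228750-59311536 on the plus strand, with 20626 bases of exon in 16 merged regions (ENSMUSG00000025326.12). The feature 9330162G02Rik is a single block of 30942 bases on the minus strand, chr7:59223847-59254788, of the class still to be experimentally checked (TEC, ENSMUSG00000109536.1). It begins 4903 bases before the annotated start of Ube3a and covers 31.5% of its length, including 7 of the 16 exon regions. Only 1796 of its bases (5.80%) lie opposite Ube3a exons, 65 of them coding, whereas 24243 lie opposite introns. It thus differs from Gm20721, most of whose bases face exons, and its count does not say where along the block the reads fell.

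The block also takes in the start of the coding sequence of Ube3a. The 20 bases at chr7:59243450-59243469, taken from an annotated transcript on each strand, are shown because they belong to both features, with the start codon and its complement in capitals.
Plus strand, Ube3a: ATGgccacagcttgtaaaag
Minus strand, 9330162G02Rik: cttttacaagctgtggcCAT
Since these bases are exonic in both features, position does not tell a read of Ube3a from a read of 9330162G02Rik here.

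Ube3a had 9 counts in all. They were 5 in sham-operated library 1, 3 in injury library 3 and 1 in CRC library 2, and the other 6 libraries were at 0, which allows up to 9.14 to 11.1 CPM in a library. The groups overlapped and no difference could be measured. Ube3a had 0.0621% of the counts that it and 9330162G02Rik held together, and its level was 0.161 CPM per kb. Without sham-operated library 1 these were 0.0309% and 0.0824 CPM per kb. With the opposite strand setting the other 99.9% of the pair would be of the strand of Ube3a.

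On 9330162G02Rik lay 14481 counts, 0.537% of all counts on features, which ranked it 12. The sham-operated libraries had 1528, 1848 and 1565 counts, or 4956, 6840 and 5596 CPM. The injury libraries had 1622, 1589 and 1410, or 5628, 5587 and 4948 CPM, and the CRC libraries 1544, 1782 and 1593, or 4702, 5476 and 4859 CPM. Sham-operated library 2 was the highest, and every pair of groups overlapped.

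The mean level of 9330162G02Rik was 5797 ± 958 CPM in sham-operated, 5388 ± 382 in injured and 5012 ± 409 in CRC-transplanted uterus (SD, n = 3). The log2 differences were −0.11 for injury against sham, −0.21 for CRC against sham and −0.10 for CRC against injury, each with an SE of 0.132, and the differences between means were smaller than the SD of the sham-operated libraries. Without single libraries they ran from −0.20 to 0.03, from −0.33 to −0.10 and from −0.18 to −0.06, and it was without sham-operated library 2 that the injury difference turned to 0.03 and CRC against sham became −0.10. When the reads outside features were added to the library sizes, the CRC differences turned to 0.09 and 0.09, while those of Gm20721 were −0.44 and −0.37. On that scale the median over all tested features moved to 0.32 and 0.21. Measured from that median, Gm20721 was at −0.76 and −0.58, and 9330162G02Rik at −0.23 and −0.12.

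The ratio of the 2 opposite features within a library does not depend on the scaling. There were 5.32, 2.98 and 3.78 counts on Gm20721 for each count on 9330162G02Rik in the sham-operated libraries, 3.30, 3.84 and 4.20 after injury, and 2.67, 2.73 and 2.77 after CRC transplantation. The CRC libraries lay close together and below the other 6, of which sham-operated library 2 came nearest. The mean ratio was 4.03 ± 1.19 in sham, 3.78 ± 0.453 in injury and 2.72 ± 0.0509 in CRC. Over the 9 libraries the log2 CPM of both features had a Pearson correlation of 0.338.

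**Figure D2:**
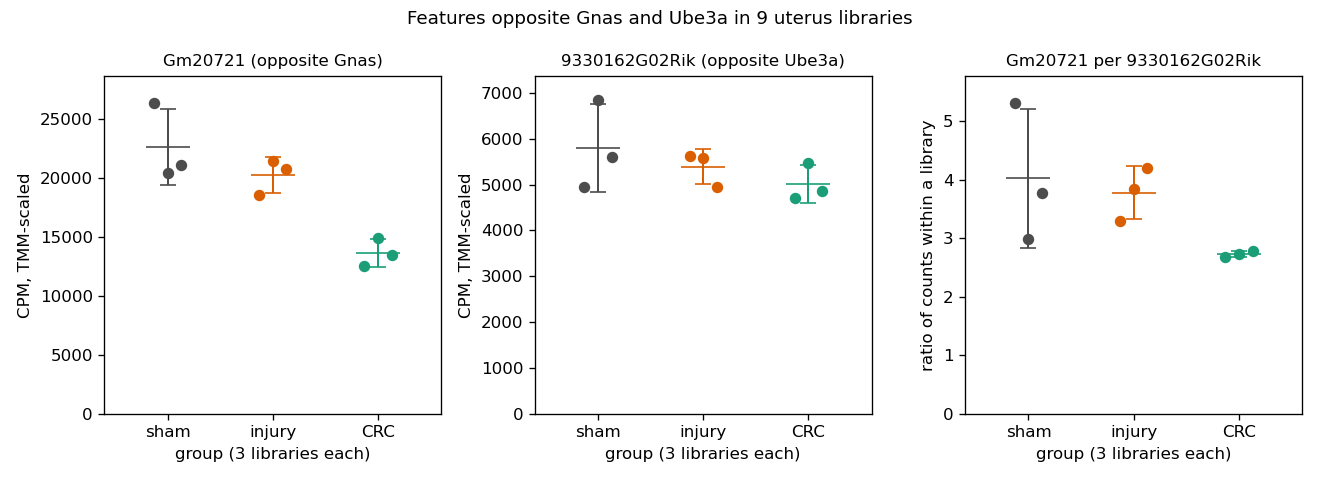
Levels of Gm20721 (left) and 9330162G02Rik (middle) in TMM-scaled CPM, and the ratio of their counts within each library (right), for 3 sham-operated, 3 injury and 3 CRC-transplanted mouse uteri, with points for libraries, horizontal bars for group means and whiskers for the SD. Gm20721 lay at 12563 to 14928 CPM in the CRC libraries and at 18557 to 26343 in the other 6, while the groups of 9330162G02Rik overlapped. The small CRC differences of 9330162G02Rik turn sign when the reads outside features are counted in the library size. That scaling moved the median of all tested features to 0.32 and 0.21, and measured from it 9330162G02Rik lay at −0.23 and −0.12. Its injury difference from sham turns sign without sham-operated library 2.

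Ordered by CPM per kb over the 9 libraries, Gm20721 came before 9330162G02Rik (175, from 152 to 221), Nespas, Gnas and Ube3a. This is the order of the counts as listed, and if strand was counted with the opposite setting the first 2 would be counts of the strands of Gnas and Ube3a. The ranges of Gm20721 and 9330162G02Rik met no other member. Those of Nespas and Gnas overlapped through sham-operated library 2, and those of Gnas and Ube3a overlapped through the libraries with the fewest and the most counts.

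Other minus strand features inside Ube3a were no members, and their comparisons were tested. Gm44560, a TEC feature at chr7:59286052-59289166 with 2025 bases opposite Ube3a exons, had 334, 280 and 312 counts in sham, 211, 220 and 253 after injury and 232, 275 and 252 after CRC transplantation. In CPM the sham-operated libraries were above all the rest, but divided by all records they overlapped with CRC. The means were 1078 ± 39.9, 798 ± 80.6 and 773 ± 69.4 CPM. Gm44560 was lower in CRC than in sham, with a log2 difference of −0.48 (SE 0.155, adjusted p = 0.0264, edgeR quasi-likelihood test, Benjamini-Hochberg). That call was lost without sham-operated library 3, CRC library 1 or CRC library 3, where the adjusted p was 0.0718, 0.139 and 0.0922, with other filters on low counts (0.218 without a filter and 0.0510 with at least 10 counts in every library) and when reads outside features entered the library size (0.406), all by the same edgeR test after Benjamini-Hochberg. Against sham the injury difference was −0.43 (SE 0.156) with an adjusted p of 0.211 (edgeR quasi-likelihood test, Benjamini-Hochberg).

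Snhg14, the long host RNA of small nucleolar RNAs whose far end reaches over Ube3a, lies at chr7:59307924-59975759 with 1803 exon bases opposite Ube3a. It had 945, 372 and 552 counts in sham, 516, 787 and 687 after injury and 464, 683 and 560 after CRC transplantation. The means were 2139 ± 856, 2323 ± 494 and 1740 ± 344 CPM, and the SD of the sham-operated group was wider than any difference between them. Its adjusted p was 0.907, 0.451 and 0.356 for injury against sham, CRC against sham and CRC against injury in the edgeR quasi-likelihood test, adjusted after Benjamini-Hochberg. Without sham-operated library 2 CRC against sham passed at −0.56 (adjusted p = 0.0209), and without sham-operated library 1 its difference was 0.03 and CRC against injury passed at −0.44 (adjusted p = 0.0402), by the same edgeR test after Benjamini-Hochberg. With only these 2 groups in the fit, CRC against injury also passed at −0.42 (adjusted p = 0.0171, edgeR, Benjamini-Hochberg). The smaller TEC features Gm44562 and Gm44559 held 150 and 78 counts in all, and neither passed in any comparison.

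Few features around the genes were read at all. Of 232 features within 500 kb of Gnas or Ube3a, members left out, 218 were at 0 in every library. The 4 tested were Snhg14, Gm44560, Gm44562 and Gm44559, all on the minus strand at Ube3a. In edgeR's test 0 of 4 were called for injury against sham, 1 of 4 for CRC against sham and 0 of 4 for CRC against injury, where 0.430%, 20.0% and 12.9% of all 3722 tested features were called. At an unadjusted p under 0.05 there was 1 of 4 in each comparison, where 12.6%, 32.1% and 24.7% of all tested features passed. DESeq2 called 0, 1 and 0 of them, and 3.47%, 18.5% and 12.0% of the features to which it gave an adjusted p. For injury against sham these were only 692 of the 3722 features, 2 of these 4 among them, and for the CRC comparisons all 3722.

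The features most like Gm20721 over the 9 libraries, by Pearson correlation of log2 CPM, were Ap3m1 (0.991), Taf10 (0.979) and Prss57 (0.970). Each lies opposite another gene: Ap3m1 faces the focal adhesion gene Vcl, Taf10 faces the integrin-linked kinase gene Ilk, and Prss57 faces the follistatin-like gene Fstl3. The closest to 9330162G02Rik were Zrsr1 (0.918), which is imprinted and lies within Commd1 on the other strand, Gm43335 (0.902) and Eml5 (0.892), which faces Zc3h14. These values describe 9 libraries scaled together and carry no test. By Spearman correlation the first 3 were Ccdc84, Tstd2 and 1700034P13Rik for Gm20721, and 4933416M07Rik, Gm49590 and Eml5 for 9330162G02Rik.

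Among other imprinted genes, 61 of the 63 listed were present by name, 34 were at 0 in every library and 9 were tested. H19, Igf2, Dlk1, Meg3, Grb10 and Snrpn were among those at 0. In edgeR's test 1 of 9 was called lower for injury against sham, 2 of 9 lower for CRC against sham and 1 of 9 lower for CRC against injury, and none was called higher. Of all 3722 features tested, 0.161%, 12.0% and 7.82% were called lower. At an unadjusted p under 0.05 there were 1, 5 and 2 of the 9, beside 12.6%, 32.1% and 24.7% of all features in either direction. The median log2 difference of the 9 was −0.07, −0.30 and −0.12, against −0.01, 0.03 and 0.01 over all features tested. For the 3 tested features opposite imprinted genes it was −0.79, −0.21 and 0.38.

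Rtl1, a retrotransposon-derived gene of the Dlk1 and Meg3 region, was the gene called in all 3 comparisons. It had 72, 147 and 137 counts in sham, 51, 44 and 54 after injury and 24, 35 and 33 after CRC transplantation. Its 3 groups did not overlap in CPM, beside 15.7%, 35.5% and 33.5% of all tested features in the 3 comparisons. Its fitted log2 difference was −1.28 (SE 0.271) for injury against sham, −2.16 (SE 0.285) for CRC against sham and −0.89 (SE 0.299) for CRC against injury, with adjusted p = 0.0219, 1.55e-06 and 0.0466 (edgeR quasi-likelihood test, Benjamini-Hochberg). Of these, CRC against sham passed in every setting tried, whereas the call against sham in injury was lost without sham-operated library 2 or 3 or any injury library, and that of CRC against injury without any injury or CRC library. The adjusted p was then 0.0538 to 0.152 and 0.0554 to 0.201 by the same edgeR test after Benjamini-Hochberg. Injury against sham was also lost with only the groups compared (0.0615) and with the replicate number as a block (0.0740), and CRC against injury with reads outside features in the library size (0.127) and by the DESeq2 Wald test (0.0619), all adjusted p after Benjamini-Hochberg and by edgeR where not named otherwise. DESeq2 gave Rtl1 no adjusted p for injury against sham. Like the members, Rtl1 lies opposite other transcripts: its exon faces the microRNA genes Mir127, Mir136, Mir431, Mir432, Mir433 and Mir434, which come from an antisense RNA of the maternal allele.

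Inpp5f, a phosphoinositide phosphatase gene with an imprinted brain transcript, was at 822 ± 141 CPM in sham, 784 ± 32.7 after injury and 589 ± 85.8 in CRC. The difference of CRC against sham was −0.48 (SE 0.171, adjusted p = 0.0449, edgeR quasi-likelihood test, Benjamini-Hochberg) and was lost in 11 of the 18 other settings. Kcnq1ot1, the antisense RNA of Kcnq1, had 6313 counts while Kcnq1 was at 0. Its level of 2194 ± 15.6, 2368 ± 104 and 2445 ± 123 CPM passed in no comparison of the main fit. Zrsr1, Mest, Copg2, Nnat and Nap1l5 did not pass there either. With reads outside features in the library size, 3 of the list were called for CRC against sham, where 24.6% of all features then tested were called. Inpp5f was not among them (adjusted p = 0.468, edgeR quasi-likelihood test, Benjamini-Hochberg).

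Of 64 genes of Gs and cyclic AMP signalling, 11 were at 0 and 12 were tested. By edgeR's test 0 of 12 were called for injury against sham, CRC against sham and CRC against injury, beside 0.430%, 20.0% and 12.9% of all tested features. At an unadjusted p under 0.05 in edgeR there were 0, 1 and 0, beside 12.6%, 32.1% and 24.7%. DESeq2 called 0 in each, but for injury against sham gave only 1 of the 12 an adjusted p. With reads outside features in the library size edgeR called 3 for CRC against sham, where 24.6% of all features then tested were called, and without sham-operated library 3 it called 1, where 15.4% were. The median log2 differences were 0.13, 0.19 and 0.25. Over the 8 tested features opposite these genes the medians were −0.52, −0.28 and 0.59. The most counts lay on the phosphodiesterase gene Pde7a (785), the G protein beta subunit gene Gnb4 (574), the prostaglandin E receptor gene Ptger4 (565), the adenylyl cyclase gene Adcy7 (538) and Gnal (350), which encodes a close relative of the Gnas product. Of the 8 tested features opposite these genes, Gm6225, which faces Crem, was lower in CRC than in sham (−1.53, SE 0.485, adjusted p = 0.0235), and 4930488L21Rik, which faces Gnao1, was higher in CRC than in injury (1.13, SE 0.376, adjusted p = 0.0443), both by the edgeR quasi-likelihood test, adjusted after Benjamini-Hochberg. The call of Gm6225 was lost without sham-operated library 2, CRC library 2 or CRC library 3, and that of 4930488L21Rik without sham-operated library 3 or any injury or CRC library. Gm6225 was also lost with reads outside features in the library size (adjusted p = 0.0646) and without a filter (0.0856), both by edgeR after Benjamini-Hochberg. For 4930488L21Rik the call was also lost without a filter (adjusted p = 0.237) and with the replicate number as a block (0.0607), by edgeR, and by the DESeq2 Wald test (0.0677), each after Benjamini-Hochberg.

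Of 37 HECT ligase and ubiquitin genes present, 6 were at 0 and 4 were tested, among them Wwp1, Herc1 and Uba6. In edgeR's test 0, 1 and 0 of 4 were called for injury against sham, CRC against sham and CRC against injury, beside 0.430%, 20.0% and 12.9% of all tested features. There were 0, 1 and 1 at an unadjusted p under 0.05, where 12.6%, 32.1% and 24.7% of all tested features passed. DESeq2 called 0, 1 and 0, with an adjusted p for only 1 of the 4 in injury against sham. The median log2 differences were −0.04, −0.04 and 0.13, and 0.10, 0.04 and 0.01 over the 6 tested features opposite the list. Wwp1, a HECT ligase like Ube3a, had 66, 64 and 57 counts in sham, 88, 79 and 43 after injury and 97, 161 and 123 after CRC transplantation. It rose in CRC against sham by 0.83 on the log2 scale (SE 0.247, adjusted p = 0.0155, edgeR quasi-likelihood test, Benjamini-Hochberg), and the call was lost without sham-operated library 3 or CRC library 2 (adjusted p = 0.0632 and 0.140 by the same edgeR test after Benjamini-Hochberg).

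Markers of the other cell types of the uterus held few counts on their own features, and those of epithelium, endothelium and immune cells were close to 0. The 6 epithelial markers held 47 counts in all, with Cdh1 at 0 and Muc1 highest at 27, and by library they summed to 11, 8 and 3 in sham, 2, 5 and 4 after injury, and 6, 5 and 3 after CRC transplantation. The 5 immune markers held 2 counts, both on Cd68, with Ptprc, Adgre1, Lyz2 and C1qa at 0. Endothelial markers held 48 counts, with Pecam1 highest at 26, and stromal markers 342, with Hoxa11 highest at 147. Of 3 stromal markers tested, 2 were called lower in CRC than in sham by edgeR, namely the collagen genes Col1a1 and Col3a1, where 20.0% of all tested features were called. By library the stromal sums were 31, 44 and 85 in sham, 26, 40 and 31 after injury, and 35, 17 and 33 after CRC transplantation. The features opposite stromal markers held far more, with 668, 920 and 698 counts in sham, 529, 530 and 607 after injury and 908, 738 and 909 after CRC transplantation. Most lay on Hoxa11os (6450 of 6507), opposite Hoxa11, which was not called for CRC against sham (log2 difference −0.05, adjusted p = 0.869, edgeR quasi-likelihood test, Benjamini-Hochberg). The neuronal markers, which matter for the imprint of Ube3a, held 120 counts, of which 119 lay on Syp, and Tubb3 and Snap25 were at 0. Even the widely used genes Actb, Gapdh, Eef1a1, Tubb5 and Hprt had only 255 counts together, with Hprt at 0, so a feature at 0 here does not show that its RNA was absent. The part of any cell type in the levels of Gm20721 and 9330162G02Rik was not tested.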

How the data were processed

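Total RNA of uterus was depleted of ribosomal RNA and sequenced in pairs of reads. The authors aligned the reads to the mouse genome with HISAT2 2.1.0, used StringTie 2.1.1 and GENCODE version 23, and deposited raw counts per gene symbol for each library. The deposited counts are labelled as from HTSeq and carry its 5 extra lines, while its version, its use of strand and the strand of the library kit are not given in the sources used here. Those lines, of reads not counted, stayed out of library sizes and tests. Features were placed on GRCm38 with GENCODE M21, which differs from the version of the study: 53569 matched by name, 132 by a RefSeq synonym (GRCm38.p6), Nespas among them, and 1527 not at all. Sequences were read from the GENCODE M21 transcripts.

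Counts were fitted in edgeR 4.0.16 (R 4.3.3) with filterByExpr, TMM scaling and the robust quasi-likelihood test over all 9 libraries, without covariates, and p-values were adjusted over 3722 features by Benjamini-Hochberg with a threshold of 0.05. Means and SDs are of TMM-scaled CPM. Log2 differences come from the fit. For correlations a prior count of 2 was added before log2.

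The members and lists were chosen with earlier results of these data known. The genes named are the 5 members, the 3 tested features most correlated with each member that passed the filter, and, of each list and of the neighbours within 500 kb, those past the threshold in any comparison and the 5 with the most counts, with features opposite them. A gene of the ubiquitin list and the feature opposite it are not reported here. Genes named as at 0, and imprinted genes without a call, were chosen after their values were seen.

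Alternatives were DESeq2 size factors, upper quartile scaling, library sizes with the reads outside features, the DESeq2 1.42.0 Wald test, other filters (none, or at least 10 counts in every library), only the groups compared, the replicate number as a block, leaving out the 3 features with the most counts, each library left out in turn, a prior count of 0.5, Spearman correlation and a window of 250 kb. The sum of Gnas counts without single sham-operated libraries, and the shares and levels per kb of Gnas and Ube3a without single libraries, were added after seeing the data.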

Additional observations from a re-analysis of the deposited data

How the results depend on the processing

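The differences of Gm20721 kept their sign in all settings run. Without single libraries they ran from −0.23 to −0.03 for injury against sham, −0.83 to −0.62 for CRC against sham and −0.65 to −0.52 for CRC against injury. Those of 9330162G02Rik ran from −0.20 to 0.03, −0.33 to −0.10 and −0.18 to −0.06. With library sizes that include reads outside features, CRC against sham and CRC against injury became −0.44 and −0.37 for Gm20721 and turned to 0.0889 and 0.0944 for 9330162G02Rik, the median of all features lying at 0.32 and 0.21 there. The Gnas sum in sham fell to 7 without sham-operated library 2. Without single libraries the share of Gnas in its pair ran from 0.0647% to 0.116% and that of Ube3a from 0.0309% to 0.0712%.

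For the imprinted list, injury against sham gave 0 calls with the DESeq2 Wald test (where 4 of 9 had an adjusted p, Rtl1 not among them), with only the groups compared and with the replicate block, and 0 to 1 without single libraries (0 without sham 2, sham 3 or any injury library). CRC against sham gave 3 with reads outside features. It gave 1 with upper quartile scaling, no filter, at least 10 counts in every library, only the groups compared and the replicate block. Without single libraries it gave 1 to 5 (5 without sham 1, and 1 without injury 3 or any CRC library). Over all features CRC against sham had 746 calls in the main fit and 505 to 894 without single libraries, with 894 without sham 1. CRC against injury had 481 over all features in the main fit and 708 with only the groups compared. Without sham 1 it had 595, so nothing is read from the list counts alone. CRC against injury gave 0 with reads outside features and the DESeq2 Wald test, 3 with only the groups compared, and 0 to 2 without single libraries (2 without sham 1, and 0 without any injury or CRC library).

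The Gs and cyclic AMP list had 3 calls in CRC against sham with reads outside features, and 0 to 1 without single libraries (1 without sham 3). The HECT and ubiquitin list had 0 to 1 in CRC against sham (0 without sham 3 or CRC 2). In CRC against injury it had 1 with reads outside features, at least 10 counts and only the groups compared, and 0 to 1 without single libraries (1 without sham 2 or CRC 1). The neighbours in CRC against sham had 0 with reads outside features, no filter and at least 10 counts, and 0 to 2 without single libraries (2 without sham 2, and 0 without sham 3, CRC 1 or CRC 3). In CRC against injury they had 1 with only the groups compared and 0 to 1 without single libraries (1 without sham 1). Over all features the calls moved too. CRC against sham had 924 with reads outside features, 615 with no filter and 555 with at least 10 counts. It had 755 without sham 2 and 636 without sham 3. CRC against injury had 529 with reads outside features, 365 with at least 10 counts and 660 without sham 2. Without CRC 1 it had 345. The causes were not tested.

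Without single libraries, Snhg14 ran from −0.12 to 0.48 for injury against sham (0.48 without sham 1, and below 0 without sham 2 or injury 2) and from −0.56 to 0.0349 for CRC against sham (0.0349 without sham 1). Gm44560 in CRC against injury ran from −0.12 to 0.0185 (above 0 without injury 3 or CRC 1). It turned to 0.00384 with at least 10 counts and to 0.15 with reads outside features, where the median of all features lay at 0.21.

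Over all features, injury against sham gave 16 calls, 3 to 154 without single libraries (154 without sham 1), 6 with only the groups compared and 5 with the replicate block. Same-numbered libraries deviated together with correlations of −0.10 to 0.08, and differently numbered ones with −0.07 to 0.11. No sign that the numbers pair the mice was thus seen, though 3 libraries in a group cannot exclude a weak pairing. Under the replicate block the imprinted list had 0, 1 and 1 calls in injury against sham, CRC against sham and CRC against injury. At 3.05 to 3.70 CPM for a count, Gnas, Nespas and Ube3a lay below the filter, so they have no fitted difference.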
